A study of Mus musculus with 11 samples.

Results

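The Myc, Max and antagonist network is a set of transcription factors that compete for a shared partner. The 10 genes described here are Myc, Mycn, Max, Mxd1, Mxd3, Mxd4, Mxi1, Mnt, Mlx and Mga, taken by name from a table of 55414 genes, and all 10 were found and passed the filter on low counts. MYC and its relative MYCN bind DNA only as dimers with MAX, at the E-box CACGTG, and activate genes for ribosome building, nucleotide synthesis and metabolism. The MXD proteins, MXI1 and MNT also pair with MAX and recruit SIN3 and HDAC corepressors to the same kind of site, MGA pairs with MAX in a Polycomb complex, and MLX pairs with the glucose-sensing Mondo proteins as well as with some MXD proteins and MNT. In T cells, MYC is induced by antigen receptor signalling and drives growth and metabolic change before division.

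RNA came from CD8+ T cells of mice, all with the OT-I genotype, a transgenic T cell receptor that recognises an ovalbumin peptide. The 3 Torin libraries (numbers 1, 3 and 4) were from cells given Torin, an inhibitor of the kinase mTOR, together with the stimulating peptide N4. The 4 stimulated libraries were from cells given N4 with DMSO, and the 4 naive libraries were from cells given neither, all at 12 h. Naive cells received no DMSO and no group received Torin alone, so solvent and peptide cannot be told apart in comparisons with naive cells, nor can an effect of Torin on resting cells be seen. Whether the libraries of a group are separate mice is not stated in the labels, so p-values measure the spread between these libraries, which may be technical. In bulk RNA, fewer cells of a type and less RNA per cell cannot be told apart.

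Library totals lay between 241.9e6 and 405.9e6 estimated counts. All 8 CD8 T cell markers were detected in every library, with summed levels of 3228 to 3332 CPM (counts scaled to a fixed total per library) in Torin, 2162 to 2586 in stimulated and 4803 to 6121 in naive libraries, and Cd4 did not exceed 0.0288 CPM. Within the naive and stimulated groups, granulocyte and monocyte markers were highest in number 2, and B cell markers in number 4. These lists, and stromal and endothelial markers, were also higher in naive 1 and 3 than in Torin and stimulated 1 and 3. The summed dendritic cell markers were not, at 10.6 and 5.47 CPM in naive 1 and 3 against 17.9 and 14.4 CPM in stimulated 1 and 3. In Torin 1 and 3 they summed to 6.24 and 10.2 CPM. Batf3 held most of the stimulated sums, at 13.3 and 11.8 CPM, against 4.94 and 1.21 CPM in naive 1 and 3. The list was mixed in direction. Xcr1 was also lower in naive 1 and 3 than in stimulated 1 and 3, but Flt3 was higher (1.80 and 1.41 against 0.197 and 0.298 CPM). Summed markers of NK and gamma-delta T cells, and of erythroid cells and platelets, overlapped between naive and other libraries. The NK and gamma-delta T cell sum was mostly Trdc, at 119 CPM in naive 1 and 138 CPM in Torin 3, and its members were mixed. Klrb1c was higher in naive 1 and 3 (2.84 and 2.25 CPM) than in stimulated 1 and 3 (0.365 and 0.0769 CPM). Klre1 was lower number by number (4.78 and 10.6 against 8.12 and 15.5 CPM). The 12 granulocyte markers summed to 2101 CPM in stimulated 2 and 8776 CPM in naive 2, and otherwise to 17.1 to 52.6 CPM in Torin, 17 to 43.0 CPM in stimulated and 128 to 167 CPM in naive libraries. The 12 monocyte and macrophage markers summed to 13.1 to 17.7 CPM in Torin libraries, 10.1 to 98 CPM in stimulated libraries, and 2130 CPM in naive 2 and 131 to 223 CPM in the other naive libraries. The 12 B cell markers summed to 13250 CPM in Torin 4, 14390 in stimulated 4 and 47400 in naive 4, and otherwise to 39.3 to 55.9 CPM in Torin, 43.2 to 118 CPM in stimulated and 224 to 369 CPM in naive libraries. The part of these cells in the results below was not tested, and values without those libraries are given where a call rests on them.

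At 12 h of stimulation, Myc was 8.55-fold higher than in naive cells and 3 genes of MAX-binding repressors, Mxd1, Mxd4 and Mxi1, were 3.10-fold to 12.3-fold lower. In all, 6 of the 10 genes passed an adjusted p of 0.05 between stimulated and naive cells, Myc and Mlx higher and Mxd1, Mxd4, Mxi1 and Mga lower, while 39.5% of all 22238 genes tested did so (19.2% higher and 20.2% lower). Between Torin and stimulated cells 1 of the 10 passed, Mlx, which was lower, against 4.62% of all genes (2.32% higher and 2.3% lower). Between Torin and naive cells 3 of the 10 passed, Myc higher and Mxd1 and Mxd4 lower, against 32.2% of all genes (16.4% higher and 15.8% lower). These tests are edgeR quasi-likelihood F tests adjusted by Benjamini and Hochberg over all genes tested, and the comparisons share libraries, so they are not independent of each other. The median log2 change of all genes tested was -0.22 for stimulated against naive, -0.02 for Torin against stimulated and -0.18 for Torin against naive cells.

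**Figure D1:**
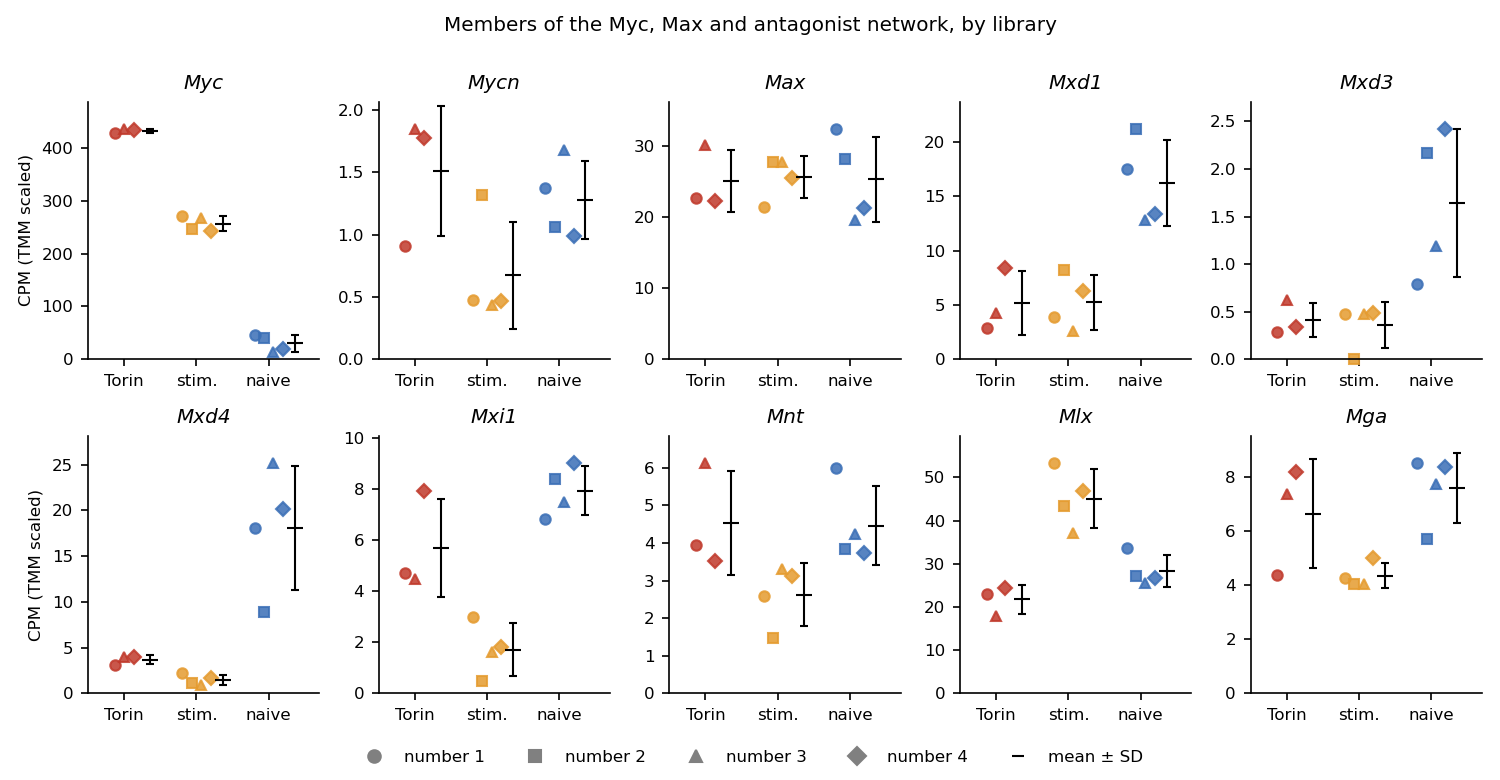
CPM scaled by composition factors (vertical axes, linear, from 0) of each of the 10 genes in the Torin, stimulated and naive libraries, 1 symbol per library by replicate number, with the mean ± SD at the right of each group (n = 3, 4 and 4). Myc is highest in Torin and lowest in naive libraries, Mxd1, Mxd3 and Mxd4 are highest in naive libraries, Mlx is highest in stimulated libraries, and Max overlaps among all 3 groups.

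Promoter sequence was available for 9 of the 10 genes (RefSeq windows of 300 bases, 250 before to 50 after the annotated start, build GRCm38.p6), all but Myc. The E-box CACGTG, which reads the same on both strands, occurred in a window of 4 of these 9 genes, against 8.09% of the 27025 genes in the table and 14 of 43 MYC activated targets (32.6%). The windows lie on the minus strand at chr5:34187661-34187960 (Mxd4) and chr12:76962199-76962498 (Max), and on the plus strand at chr11:74830674-74830973 (Mnt) and chr11:101087040-101087339 (Mlx). They are shown because the E-box is the site for which the network's dimers compete. The 40 bases around each match follow, 5′ to 3′ on the gene's strand, with the E-box in capitals.
Mxd4: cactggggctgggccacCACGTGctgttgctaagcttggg
Mnt: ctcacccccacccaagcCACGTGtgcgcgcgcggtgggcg
Mlx: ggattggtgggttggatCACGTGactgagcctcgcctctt
Max: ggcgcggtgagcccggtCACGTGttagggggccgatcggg
Counted from the start site, the first base of the E-box lies at -219 in Mxd4, -123 in Mnt, -40 in Mlx and -3 in Max. The 4 genes shared no direction of change. Between stimulated and naive cells Mxd4 was lower, Mlx was higher, and Max and Mnt did not pass the test. A match is a description of the letters and not evidence of binding.

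Myc, the main activator of the network in T cells, had 428, 436 and 434 CPM in Torin libraries, 271, 246, 267 and 243 CPM in stimulated libraries and 46.2, 40.4, 13.5 and 20.1 CPM in naive libraries. The groups did not overlap in any of the 3 comparisons. The SD was 4.09 CPM in Torin, 14.2 CPM in stimulated and 15.7 CPM in naive libraries, so the naive libraries spread most for their level. Myc rose with stimulation (log2 change 3.10 ± 0.34 SE, adjusted p = 4.81e-05), and matched by number the log2 ratio of stimulated to naive was 2.54, 2.59, 4.26 and 3.57 for numbers 1 to 4. It was also higher in Torin than in naive cells (3.85 ± 0.36 SE, adjusted p = 5.55e-05).

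Between Torin and stimulated cells Myc differed by 0.75 ± 0.34 SE on the log2 scale and did not pass the test (adjusted p = 0.248), although all 3 Torin libraries lay above all 4 stimulated ones. The log2 ratios by number were similar, at 0.66, 0.70 and 0.83 for numbers 1, 3 and 4. With only the 7 libraries of these groups in the fit, which leaves out the spread of the naive libraries, the change was 0.78 and passed (adjusted p = 0.0121). That was the single alternative of 22 in which it passed.

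Mycn, a relative of Myc best known from embryonic and neural tissue, was far lower, at 0.91, 1.85 and 1.78 CPM in Torin, 0.47, 1.32, 0.43 and 0.47 CPM in stimulated and 1.38, 1.06, 1.68 and 0.99 CPM in naive libraries. Stimulated 2 stood apart from the other stimulated libraries and lay among the naive ones. The change between stimulated and naive cells did not pass (log2 change -0.93 ± 0.44 SE, adjusted p = 0.122), and without stimulated 2, the library with granulocyte markers, it did (-1.48, adjusted p = 0.0122). Mycl, the remaining gene of the Myc family, averaged 0.0253 CPM in Torin, 0.0670 CPM in stimulated and 0.216 CPM in naive libraries and passed in no comparison.

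Max, the shared partner of MYC, MYCN, MGA, MNT and the MXD proteins, had 22.8, 30.1 and 22.4 CPM in Torin, 21.5, 27.8, 27.8 and 25.6 CPM in stimulated and 32.4, 28.2, 19.6 and 21.3 CPM in naive libraries. All 3 groups overlapped. Its log2 change was 0.02 ± 0.19 SE for stimulated against naive (adjusted p = 0.956), -0.03 ± 0.20 for Torin against stimulated (adjusted p = 0.964) and -0.02 ± 0.20 for Torin against naive cells (adjusted p = 0.962). Its sign differed among scalings, for example -0.49 for stimulated against naive cells with library totals alone.

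Mxd4, an antagonist that pairs with MAX and is known from resting and differentiated cells, had 3.15, 4.03 and 3.94 CPM in Torin, 2.18, 1.11, 0.90 and 1.70 CPM in stimulated and 18.1, 8.91, 25.1 and 20.2 CPM in naive libraries. The 3 groups did not overlap with each other. Mxd4 fell with stimulation by the most among the 10 genes (log2 change -3.62 ± 0.37 SE, adjusted p = 3.29e-05, 12.3-fold lower). Torin cells held less than naive cells (-2.29 ± 0.39 SE, adjusted p = 0.00126). Against stimulated cells they held 2.52 times as much, which missed the threshold (1.33 ± 0.36 SE, adjusted p = 0.0664).

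Mxd1, an antagonist known to be induced in differentiating myeloid cells, had 2.87, 4.22 and 8.44 CPM in Torin, 3.86, 8.23, 2.56 and 6.27 CPM in stimulated and 17.5, 21.2, 12.8 and 13.4 CPM in naive libraries. Every naive library lay above every other library, while Torin and stimulated libraries overlapped throughout. The highest stimulated and the highest naive value came from number 2, the libraries with granulocyte markers, and the sums of granulocyte and of monocyte markers were higher in every naive library than in the Torin and stimulated libraries other than stimulated 2. Their part in the change was not tested. Mxd1 was lower in stimulated than in naive cells (-1.63 ± 0.41 SE, adjusted p = 0.00846), also without the libraries of number 2 (-1.79, adjusted p = 0.0139). It was lower in Torin than in naive cells too (-1.65 ± 0.46 SE, adjusted p = 0.0174), a call lost without Torin 1 (-1.36, adjusted p = 0.0734) or Torin 3 (-1.52, adjusted p = 0.072). Torin and stimulated cells differed by -0.01 ± 0.43 SE (adjusted p = 0.996).

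Mxi1, also called Mxd2, had 4.69, 4.46 and 7.92 CPM in Torin, 2.98, 0.47, 1.61 and 1.80 CPM in stimulated and 6.84, 8.41, 7.49 and 9.0 CPM in naive libraries. All stimulated libraries lay below all others, and Torin 4 lay among the naive libraries. Mxi1 fell with stimulation (-2.21 ± 0.45 SE, adjusted p = 0.00249, 4.63-fold lower). Torin cells had 3.32 times the level of stimulated cells, which missed the threshold (1.73 ± 0.47 SE, adjusted p = 0.0633), and differed from naive cells by -0.48 ± 0.47 SE (adjusted p = 0.485).

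For Mxd4 and Mxi1, the call between Torin and stimulated cells turned on the setting. Both were called higher in Torin cells by DESeq2 (adjusted p = 0.00877 for Mxd4 and 0.00607 for Mxi1), with genes of a mean CPM of at least 5, with counts divided by 10, and without stimulated 1 (1.58 for Mxd4 and 2.14 for Mxi1). Mxd4 was also called without naive 2, a library with granulocyte markers (1.33, adjusted p = 0.0379). With the replicate number as a block neither was (1.13, adjusted p = 0.108 for Mxd4, and 1.65, adjusted p = 0.0916 for Mxi1).

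Mxd3, an antagonist known from cells in cycle, was scarce, at 0.29, 0.62 and 0.34 CPM in Torin, 0.47, 0, 0.48 and 0.48 CPM in stimulated and 0.79, 2.17, 1.19 and 2.42 CPM in naive libraries. All naive libraries lay above all others, but the change did not pass for stimulated against naive (-2.20 ± 1.05 SE, adjusted p = 0.121) or for Torin against naive cells (-1.98 ± 1.15 SE, adjusted p = 0.222). Without stimulated 2, in which the gene had no count, both passed (-1.78, adjusted p = 0.0178, and -1.98, adjusted p = 0.013).

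Mnt, a MAX-binding repressor expressed in most cell types, had 3.95, 6.12 and 3.53 CPM in Torin, 2.59, 1.48, 3.32 and 3.13 CPM in stimulated and 6.0, 3.85, 4.24 and 3.74 CPM in naive libraries. The stimulated libraries lay below all others. The change with stimulation missed the threshold (-0.76 ± 0.30 SE, adjusted p = 0.0657) and passed with the replicate number as a block (-0.81, adjusted p = 0.0425) and with DESeq2 (-0.75, adjusted p = 0.0388). Torin and stimulated cells differed by 0.79 ± 0.32 SE (adjusted p = 0.199), and Torin and naive cells by 0.02 ± 0.32 SE (adjusted p = 0.966).

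Mlx, which encodes the partner of the Mondo proteins, had 23.0, 18.0 and 24.3 CPM in Torin, 53.2, 43.3, 37.0 and 46.8 CPM in stimulated and 33.7, 27.3, 25.5 and 26.7 CPM in naive libraries. Torin libraries were all below stimulated and all below naive libraries, and stimulated libraries were all above naive libraries. Mlx rose with stimulation (0.67 ± 0.16 SE, adjusted p = 0.00584, 1.59-fold). It was 2.07-fold lower in Torin than in stimulated cells (-1.05 ± 0.17 SE, adjusted p = 0.0118), with log2 ratios by number of -1.19, -1.02 and -0.93 for numbers 1, 3 and 4. Torin cells differed from naive cells by -0.38 ± 0.17 SE (adjusted p = 0.116).

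Both calls for Mlx had limits. With library totals alone, where the median of all genes was -0.71 for stimulated against naive cells, Mlx differed by 0.19 in that comparison (adjusted p = 0.512). The call between Torin and stimulated cells was lost without the libraries of number 4 (-1.10, adjusted p = 0.0936) and without Torin 3 (-0.93, adjusted p = 0.0695). It was also lost with library totals alone (-0.92, adjusted p = 0.0563). The libraries of number 4 are those with B cell markers, whose part was not tested. Without them the fit called 55 of all genes, against 1027 in the main fit.

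Mga, whose large protein pairs with MAX and belongs to the Polycomb complex PRC1.6, had 4.38, 7.40 and 8.21 CPM in Torin, 4.27, 4.07, 4.06 and 5.03 CPM in stimulated and 8.52, 5.71, 7.75 and 8.39 CPM in naive libraries. Stimulated libraries were all below naive ones, and Torin libraries overlapped with both. Mga was lower in stimulated than in naive cells (-0.80 ± 0.22 SE, adjusted p = 0.0144), a call lost without the libraries of number 4 (-0.73, adjusted p = 0.076) or without stimulated 3 (-0.69, adjusted p = 0.0647). Torin differed from stimulated cells by 0.61 ± 0.24 SE (adjusted p = 0.178) and from naive cells by -0.19 ± 0.24 SE (adjusted p = 0.6).

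**Figure D2:**
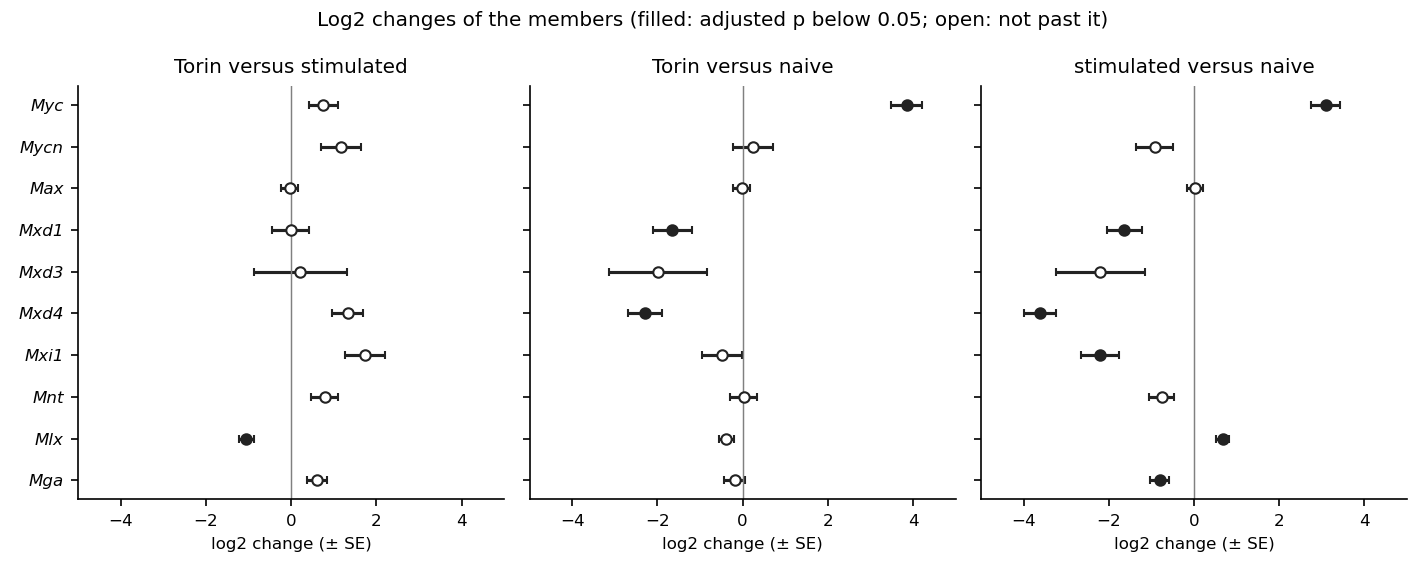
Log2 changes (horizontal axes, ± SE) of the 10 genes in Torin against stimulated, Torin against naive and stimulated against naive cells. Filled points have an adjusted p below 0.05. Myc lies at 3.85 and 3.10 against naive cells, Mxd4 at -2.29 and -3.62, and Mlx, at -1.05, is the single filled point of Torin against stimulated cells.

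Counted without a test, 8 of the 10 genes had stimulated and naive libraries that did not overlap, against 41.5% of all genes tested. For Torin and stimulated libraries this held for 5 of the 10 (Myc, Mxd4, Mxi1, Mnt and Mlx), against 19.7% of all genes. For Torin and naive libraries it held for 5 of the 10 (Myc, Mxd1, Mxd3, Mxd4 and Mlx), against 43.5%. Of the 5 antagonist genes, Mxd4, Mxi1, Mnt and Mxd3 had a positive log2 change in Torin against stimulated cells (1.33, 1.73, 0.79 and 0.22) and Mxd1 one of -0.01. None of these passed the test, and that of Mxd3 turned to -0.20 without stimulated 2.

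Levels of different genes were set side by side per length, as TPM (transcript counts over transcript length, scaled to a fixed total per library), which carry no composition factor. In naive cells Myc averaged 18.5 ± 12.0 TPM (SD), Max 18.2 ± 7.50 and Mlx 17.1 ± 5.38 TPM, which did not differ beyond their spread. Below them came Mxd4 at 5.37 ± 2.20, Mxd1 at 4.35 ± 1.36 and Mxi1 at 3.99 ± 0.20 TPM, which overlapped with each other. Mxd3, Mnt, Mga and Mycn stood between 1.3 and 0.62 TPM on average.

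In stimulated cells Myc led at 95.7 ± 17 TPM, followed by Mlx at 18.0 ± 5.34 and Max at 10.6 ± 1.06 TPM. Each of the other 7 genes averaged 0.86 TPM or less. In Torin cells Myc averaged 182 ± 4.82 TPM, Max 12.2 ± 1.86 and Mlx 9.58 ± 1.42 TPM, and Mxi1 followed at 2.18 ± 0.93 TPM. In Torin cells the highest Mlx value (10.8 TPM) lay just below the lowest Max value (10.9 TPM), and in stimulated cells the lowest Mlx value (11.6 TPM) lay just below the highest Max value (12.0 TPM).

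The summed TPM of the antagonists Mxd1, Mxd3, Mxd4, Mxi1 and Mnt was 3.83, 4.66 and 6.60 in Torin libraries, 3.01, 1.95, 1.58 and 2.78 in stimulated libraries and 19.5, 14.4, 16.7 and 13.9 in naive libraries. The 3 groups did not overlap. As a percentage of Myc TPM, the antagonists came to 2.76% ± 0.70 in Torin (SD, n = 3), 2.42% ± 0.47 in stimulated (n = 4) and 116% ± 67.0 in naive cells (n = 4). In naive cells the ratio ran from 57.3% in naive 1 to 198% in naive 3, so antagonist transcripts were fewer than those of Myc in naive 1 and 2 and more in naive 3 and 4. Torin and stimulated cells overlapped in this ratio, and both the antagonist sum and Myc were higher in Torin libraries. Myc over Max was 15.1-fold ± 2.16 in Torin, 9.0-fold ± 1.45 in stimulated and 0.944-fold ± 0.272 in naive cells.

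**Figure D3:**
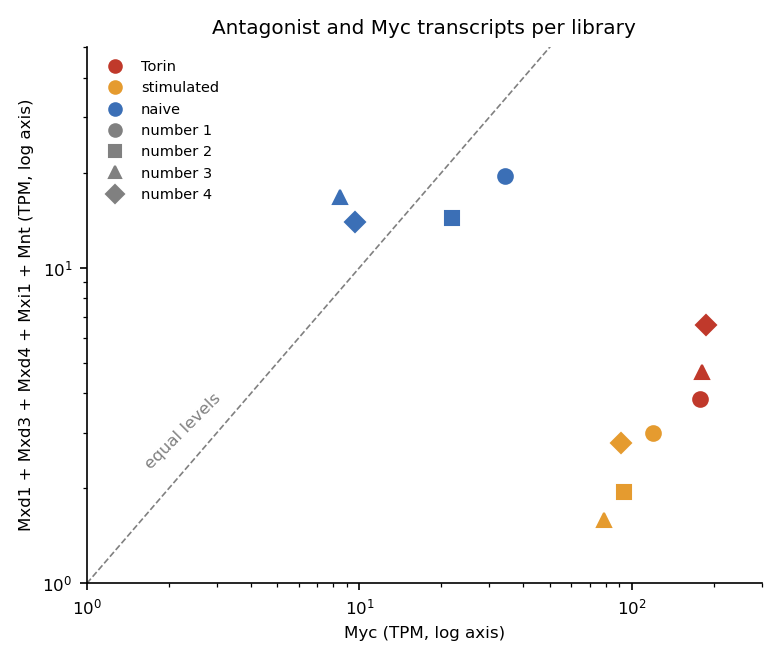
Summed TPM of the antagonists Mxd1, Mxd3, Mxd4, Mxi1 and Mnt (vertical, log axis) against Myc TPM (horizontal, log axis), 1 point per library, coloured by group and shaped by replicate number, with a dashed line of equal levels. The 4 naive libraries lie on both sides of the line, and the Torin and stimulated libraries lie far to its right, at 177 to 187 TPM and 78.8 to 119 TPM of Myc.

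Transcript usage was compared for the 9 genes with at least 2 transcripts tested, all but Mnt, as the log2 ratio of a transcript to the rest of its gene. Of 37 transcripts, 16 passed in limma between stimulated and naive cells (30.5% of all 42831 transcripts tested did), 2 between Torin and stimulated cells (0.894%) and 7 between Torin and naive cells (20.6%). Most of these counts rest on transcripts near the pseudocount of 0.5 CPM: with 0.1 CPM, 7, 0 and 3 passed. The 2 calls between Torin and stimulated cells were Mlx-206 and Mlx-207, which averaged 0.184% of Mlx or less in every group. Neither exceeded 0.0856 CPM in any library, so their ratios are set mainly by the pseudocount and the rest of Mlx. The log2 ratio changes were 1.10 and 1.02, against -1.05 for the Mlx gene, so these calls are not shown to be changes of usage. The transcripts named below were chosen after their values were seen.

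The largest usage change by log2 size was that of Myc-202, which also had the largest SE of the Myc transcripts. Others, such as the Mxd4 transcript with a reading frame of 199 residues (adjusted p = 0.000163) and Myc-203 (adjusted p = 0.000298) between stimulated and naive cells, had smaller p-values and made up at most 11.2% of Mxd4 and 3.56% of Myc counts in any library. That Mxd4 transcript did not exceed 0.351 CPM in any library, and its share overlapped between stimulated and naive libraries. Myc-203 lay at 0.387 to 0.470 CPM in naive libraries. Beside a pseudocount of 0.5 CPM, such ratios largely follow the rest of the gene, which fell for Mxd4 and rose for Myc. These 2 calls are therefore not shown to be changes of usage. Myc-202 is a Myc transcript with a reading frame of 439 residues, against 453 residues in Myc-206, the most abundant one. Myc-202 made up 0.59%, 0.58% and 0.53% of Myc counts in Torin libraries, 0.64%, 0.59%, 0.35% and 8.18% in stimulated libraries and 5.76%, 14.4%, 27.8% and 19.1% in naive libraries. Stimulated 4 lay among the naive libraries and the other stimulated libraries lay near the Torin ones. In limma its usage was lower in stimulated than in naive cells (log2 ratio change -3.85 ± 0.82 SE, adjusted p = 0.00508) and in Torin than in naive cells (-4.82 ± 0.89 SE, adjusted p = 0.00366). With edgeR's diffSpliceDGE the second call held (adjusted p = 0.0205) and the first did not (adjusted p = 0.246).

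In absolute terms Myc-202 stood at 2.53, 2.51 and 2.38 CPM in Torin libraries, at 1.78, 1.52, 0.94 and 20.8 CPM in stimulated libraries and at 2.55, 5.70, 3.67 and 3.91 CPM in naive libraries. Stimulated 4 lay above all other libraries. Myc-206 stood at 248, 223 and 254 CPM in Torin, 169, 139, 150 and 150 CPM in stimulated and 23.2, 17.1, 4.05 and 9.24 CPM in naive libraries. Its usage just passed in limma as higher in stimulated than in naive cells (0.84 ± 0.28 SE, adjusted p = 0.0463). That call was kept in 3 of 16 alternatives. The Myc transcripts overlap over nearly their whole length, so the division of reads among them is uncertain.

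Max is made as a longer and a shorter protein that differ by 9 residues just before the DNA-binding region, encoded by an exon of 27 bases that Max-202 includes and Max-201 skips. The junction is shown, 5′ to 3′, because these bases are what tells both forms apart, and the capitals mark the extra exon.
Max-202: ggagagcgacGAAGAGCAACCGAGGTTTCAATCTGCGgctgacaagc
Max-201: ggagagcgacgctgacaagc
Max-202 made up 37.4%, 26.9% and 58.5% of Max counts in Torin, 42.7%, 44.3%, 18.9% and 34.2% in stimulated and 17.1%, 13%, 32.6% and 16.4% in naive libraries. The groups overlapped. Its usage changed by 1.08 ± 0.52 SE between stimulated and naive cells (limma, adjusted p = 0.145) and by 1.45 ± 0.56 SE between Torin and naive cells (adjusted p = 0.0966), and neither passed.

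Mxi1 has transcripts with different first exons. The one for a protein of 228 residues averaged 38.7% ± 27.6 of Mxi1 counts in Torin, 15.6% ± 22.0 in stimulated and 63.2% ± 8.36 in naive cells (SD). The one for 295 residues averaged 42.9% ± 21.6 in Torin, 58.6% ± 35.6 in stimulated and 23.5% ± 7.91 in naive cells. Between stimulated and naive cells neither passed in limma. The usage of the shorter form changed by -2.01 ± 0.70 SE (adjusted p = 0.0512) and that of the longer form by 1.67 ± 0.61 SE (adjusted p = 0.0604), and both passed with the replicate number as a block (adjusted p = 0.0452 and 0.0481). The stimulated shares rest on a gene level of 0.47 to 2.98 CPM.

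Mlx is spliced into forms of 298, 244 and 214 residues. Mlx-201, the longest, averaged 52.8% ± 14.4 of Mlx in Torin, 45% ± 2.22 in stimulated and 58.0% ± 13.2 in naive cells. Mlx-202 averaged 32.9% ± 20.6 in Torin, 42.2% ± 5.68 in stimulated and 36.5% ± 12.1 in naive cells. Mlx-203 averaged 14% ± 15.3 in Torin, 12.7% ± 4.26 in stimulated and 5.14% ± 2.75 in naive cells. None of the 3 passed in any comparison.

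**Figure D4:**
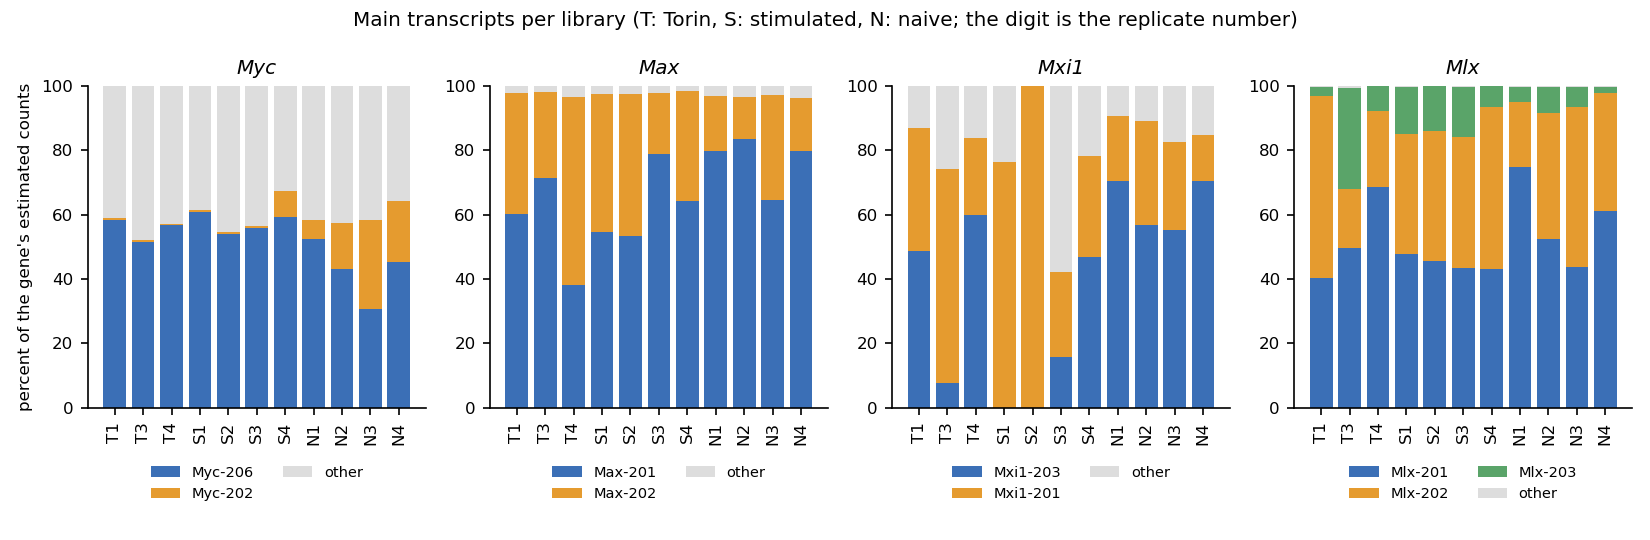
Percentage of each gene's estimated counts (vertical axes, 0 to 100) in the named transcripts of Myc, Max, Mxi1 and Mlx, stacked, 1 bar per library (T Torin, S stimulated, N naive, with the replicate number). Myc-202 is visible in the naive libraries and in stimulated 4, at 5.76% to 27.8% and 8.18% of Myc.

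The genes around the network were described by counts and medians. The lists were chosen with earlier results of these data known, so their counts are a description and not independent support. All 50 listed MYC activated targets were higher in stimulated than in naive cells, against 19.2% of all genes. Their median log2 change was 2.58, against -0.22 for all genes. They include Srm, an enzyme of spermidine synthesis, at 992 ± 175 CPM in stimulated and 66.7 ± 56.9 CPM in naive cells (3.89 ± 0.55 SE, adjusted p = 0.000228). Hspe1, a mitochondrial chaperonin, stood at 4794 ± 617 CPM in stimulated and 312 ± 146 CPM in naive cells (3.94 ± 0.33 SE, adjusted p = 1.12e-05). In Torin against naive cells 49 of the 50 were higher (median 2.24), against 16.4% of all genes (median -0.18). Ldha, lactate dehydrogenase A, was not past the threshold there (0.25 ± 0.27 SE, adjusted p = 0.529).

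Between Torin and stimulated cells 2 of the 50 targets passed, both lower, which is a share near the 4.62% of all genes. The median was -0.28, against -0.02 for all genes. Ldha averaged 681 ± 110 CPM in Torin and 2486 ± 459 CPM in stimulated cells (-1.87 ± 0.28 SE, adjusted p = 0.00762). Hspe1 averaged 1856 ± 315 CPM in Torin and 4794 ± 617 CPM in stimulated cells (-1.37 ± 0.33 SE, adjusted p = 0.0426). Across alternatives the number of targets that passed here ran from 0 to 7, with 1 under the replicate block and 0 without Torin 3 or without the libraries of number 4.

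Of 9 tested genes listed as repressed by MYC, 4 were lower and 2 higher in stimulated than in naive cells (median -1.16), against 39.5% of all genes in either direction. Cdkn1b, the cell cycle inhibitor p27, fell to 3.0 ± 1.56 CPM in stimulated cells, against 42.3 ± 3.67 CPM in naive cells (-3.82 ± 0.37 SE, adjusted p = 2.23e-05). The 2 that rose against the name of the list were Cdkn1a, the cell cycle inhibitor p21, at 550 ± 234 CPM in stimulated and 108 ± 67.5 CPM in naive cells (adjusted p = 0.00319), and Ndrg1, a gene induced by stress and hypoxia, at 12.3 ± 4.37 CPM in stimulated and 6.18 ± 1.64 CPM in naive cells (adjusted p = 0.0129). In Torin against stimulated cells these same genes passed in opposite directions: Cdkn1a was lower, at 113 ± 6.93 CPM in Torin and 550 ± 234 CPM in stimulated cells (adjusted p = 0.0441), and Ndrg1 was higher, at 42.8 ± 6.37 CPM in Torin and 12.3 ± 4.37 CPM in stimulated cells (adjusted p = 0.0101). With the replicate number as a block 1 of the 9 passed there. In Torin against naive cells 5 were lower and 1 higher (median -2.19), against 15.8% lower and 16.4% higher of all genes (median -0.18). One of the 5, Slc11a1, a metal transporter of myeloid cells, averaged 0.189 ± 0.242 CPM in Torin and 15.2 ± 22.5 CPM in naive cells, where its SD exceeded its mean.

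Of 18 MYC cofactors, 5 were higher and 8 lower in stimulated than in naive cells (median -0.10), against 39.5% of all genes in either direction. The helicases Ruvbl1 and Ruvbl2 rose, to 128 ± 18.4 and 211 ± 52.2 CPM in stimulated cells, against 22.2 ± 11.5 and 35.0 ± 10.3 CPM in naive cells (adjusted p = 9.1e-05 and 3.29e-05). Trrap, the scaffold of histone acetyltransferase complexes, fell to 6.68 ± 1.54 CPM in stimulated cells, against 17 ± 4.31 CPM in naive cells (adjusted p = 0.00318). Pfdn5, a prefoldin subunit known to bind MYC and lower its activity, fell to 72.2 ± 36.6 CPM in stimulated cells, against 282 ± 55.5 CPM in naive cells (adjusted p = 0.000734). It was also the single cofactor past the threshold between Torin and stimulated cells, at 189 ± 62.9 CPM in Torin and 72.2 ± 36.6 CPM in stimulated cells (adjusted p = 0.0473).

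Of 16 genes that set MYC protein stability, 3 were higher and 4 lower in stimulated than in naive cells (median -0.12), a share near the 39.5% of all genes that passed in either direction. Between Torin and stimulated cells edgeR called 0 of the 16, with 5 at an unadjusted p under 0.05, and DESeq2 called 1. Usp28, a deubiquitinase that stabilises MYC, fell to 1.26 ± 0.70 CPM in stimulated cells, against 11.3 ± 2.84 CPM in naive cells (adjusted p = 0.000135). Gsk3b, the kinase that marks MYC for degradation, fell to 6.38 ± 1.09 CPM in stimulated cells, against 15.2 ± 1.44 CPM in naive cells (adjusted p = 0.000138). Usp36, a nucleolar deubiquitinase of MYC, rose to 23.1 ± 2.39 CPM in stimulated cells, against 7.25 ± 2.05 CPM in naive cells (adjusted p = 0.000122).

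Of 15 SIN3 and HDAC corepressor genes, through which the MXD proteins act, 4 were higher and 5 lower in stimulated than in naive cells (median -0.17), against 39.5% of all genes in either direction. Sap30 was higher at 98.9 ± 13 CPM in stimulated and 41.5 ± 13.2 CPM in naive cells (adjusted p = 0.00105), and Arid4a was lower at 14.9 ± 2.91 CPM in stimulated and 41.9 ± 7.29 CPM in naive cells (adjusted p = 7.93e-05). Between Torin and stimulated cells edgeR called 0 of the 15, with 1 at an unadjusted p under 0.05, and DESeq2 called 1. Of 9 PRC1.6 partners of Mga, 2 were higher and 2 lower in stimulated than in naive cells, a share near the 39.5% of all genes. The largest rise was that of Tfdp1, a partner of E2F factors, at 36.8 ± 9.31 CPM in stimulated and 7.20 ± 1.52 CPM in naive cells (adjusted p = 6.05e-05). In Torin against stimulated cells Pcgf6, the subunit that defines this complex, was higher at 24.2 ± 1.89 CPM in Torin and 12.8 ± 2.46 CPM in stimulated cells (adjusted p = 0.0308). Yaf2 was lower there, at 7.72 ± 0.53 CPM in Torin and 14 ± 2.94 CPM in stimulated cells (adjusted p = 0.0312).

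Among the Mondo genes that work with Mlx, Mlxip averaged 21.6 ± 5.33 CPM in Torin, 15.9 ± 4.21 CPM in stimulated and 22.4 ± 2.56 CPM in naive cells and passed in no comparison, and Mlxipl had too few counts to be tested. Their target Txnip, an inhibitor of glucose uptake, averaged 3.47 ± 0.83 CPM in Torin, 7.47 ± 4.27 CPM in stimulated and 87.4 ± 21.1 CPM in naive cells. It was lower in stimulated than in naive cells (-3.55 ± 0.38 SE, adjusted p = 3.89e-05) and in Torin than in naive cells (-4.65 ± 0.45 SE, adjusted p = 6.1e-05). Arrdc4, another target, passed in no comparison. Of the tested genes of this list 1 of 3 passed in each of these comparisons with naive cells. That is a share near the 39.5% (stimulated) and 32.2% (Torin) of all genes. With the replicate number as a block 2 of the 3 passed in each. Between Torin and stimulated cells edgeR called 0 of the 3, with 1 at an unadjusted p under 0.05, and DESeq2 and the replicate block called 1 each.

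The calls in these lists between Torin and stimulated cells were few, where 4.62% of all genes passed. Several were lost when 1 library was left out. Without the libraries of number 4, in a fit that called 55 of all genes, 0 genes of any of the lists passed. Without any 1 of the Torin libraries, stimulated 2 or stimulated 4, 0 cofactors and 0 partners of Mga passed.

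**Figure D5:**
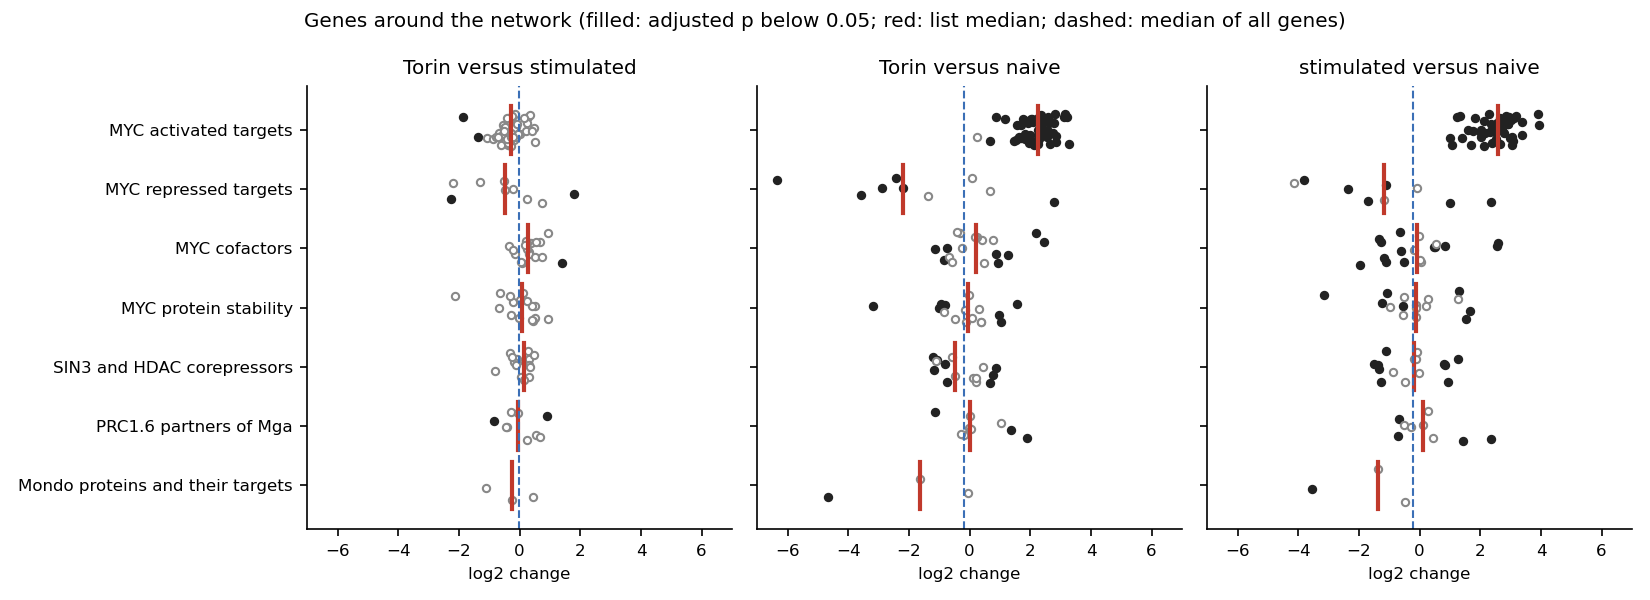
Log2 changes (horizontal axes) of the genes of each list in Torin against stimulated, Torin against naive and stimulated against naive cells, 1 point per gene, filled where the adjusted p is below 0.05. The red bar is the list's median and the dashed line the median of all genes tested. The MYC activated targets lie to the right of the dashed line against naive cells (medians 2.24 and 2.58) and around it for Torin against stimulated cells (median -0.28).

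Of 6238 genes with at least 10 CPM on average, those with the profile nearest to that of Myc over the 11 libraries were Mir155hg, Mettl1, Atf3, Nr4a2 and Lad1. Nearness was the root mean square difference of log2 CPM, each gene centred on its mean, and was 0.22 for Mir155hg, 0.31 for Mettl1, 0.32 for Atf3, 0.32 for Nr4a2 and 0.34 for Lad1. Mir155hg, the host transcript of the microRNA miR-155, averaged 30.6 ± 0.87 CPM in Torin, 14.5 ± 2.63 CPM in stimulated and 1.3 ± 0.71 CPM in naive cells. Mettl1, a tRNA methyltransferase, averaged 160 ± 28.5 CPM in Torin, 90.7 ± 17.3 CPM in stimulated and 11.2 ± 7.04 CPM in naive cells. Like Myc, both were highest in Torin and lowest in naive cells, which is what the choice sets, and no test is given.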

How the data were processed

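RNA of 11 libraries of OT-I CD8+ T cells was measured in 3 groups, as labelled: Torin (n = 3), stimulated (n = 4) and naive (n = 4). Per the labels' protocols, the kit was a SMARTer ultra-low poly(A) kit. The authors deposited estimated counts per gene and per transcript, in whole numbers, used here as deposited. The submitters' processing notes name the build mm39 and, without roles, DESeq2 1.30.1, R 4.0.5, StringTie 2.1.0, SAMtools 1.9 and STAR 2.7.1a. Estimated counts need not be numbers of reads, so the totals of 241.9e6 to 405.9e6 may overstate the depth. The precision given is that of the spread among libraries. Identifiers were looked up without version in GENCODE M21, which is built on GRCm38, as are the promoter windows. This gave a symbol to 52081 genes (94.0%), with at least 98.6% of the counts of a library, and a name to 138292 transcripts (97.1%), with at least 99.2%.

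The gene test was the quasi-likelihood F test of edgeR 4.0.16 (R 4.3.3) with TMM factors of 0.727 to 1.35 and all 11 libraries in 1 model of group means. It ran on the 22238 genes that filterByExpr kept at its minimum count of 10, at a Benjamini-Hochberg adjusted p of 0.05. The common biological coefficient of variation was 0.79. CPM are scaled by the TMM factors. TPM were computed from transcript counts over transcript length. Usage was tested with limma 3.58.1 on log2((transcript CPM + 0.5)/(other transcripts CPM + 0.5)) in 42831 transcripts of 10241 genes. Both steps were also run on simulated data, and the outcome is not given here. In the usage simulation gene levels did not differ between groups. It could therefore not show how a changed gene level moves ratios near the pseudocount. The lists and the 10 genes were chosen with earlier results of these data known. Within each list, the 2 largest rises and 2 largest falls past the threshold with at least 5 CPM in the higher group were eligible to be named. No libraries of a group agreed within counting error (lowest chi-square per gene 290.6).

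Libraries of the same number tended to deviate together from their group means. These deviations correlated at 0.44, 0.46, 0.32 and 0.47 for stimulated and naive. They correlated at 0.23, 0.41 and 0.59 for Torin and stimulated, and at 0.17, 0.33 and 0.42 for Torin and naive. Between libraries of different numbers the correlations ran from -0.43 to 0.17, the highest for Torin 1 with naive 3. Torin 1 and naive 1 are therefore not set apart as a pair. The labels do not say what a number shares. Alternatives were the size factors and the test of DESeq2 1.42.0, scaling by library totals, a filter at a mean CPM of 5 or none, counts divided by 10, the libraries of the compared groups alone, the replicate block, the first letter of the sample description as a block, leaving out libraries, other pseudocounts, a share of at least 5%, and diffSpliceDGE.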

Additional observations from a re-analysis of the deposited data

Results flagged for a closer look

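In 3 of 38 groups of 4 libraries, 1 library stood apart by Dixon's 95% criterion, which chance meets in about 1 group in 20. Mycn stood at 1.32 CPM in stimulated 2, against 0.433 to 0.473 CPM in the other stimulated libraries. Mxd3 stood at 0 CPM in stimulated 2, against 0.473 to 0.485 CPM in the other stimulated libraries. Stimulated 2 is the stimulated library with granulocyte markers, and their part in both values was not tested. Myc-202 held 8.18% of Myc counts in stimulated 4, against 0.351% to 0.640% in the other stimulated libraries, and stimulated 4 is the stimulated library with B cell markers, whose part was not tested.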

How the results depend on the processing

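Of the 10 genes, 1 passed between Torin and stimulated cells, and 0 with library totals alone or without the libraries of number 4, 2 with the libraries of both groups alone, 3 with DESeq2, a mean CPM of at least 5 or counts divided by 10, and 0 to 3 without 1 library. Over all genes this comparison called 1027, against 2740 with DESeq2, 656 without a filter, 675 with the description letter as a block, 338 without number 2, 55 without number 4, 541 without Torin 4, 261 without Torin 1, 144 without Torin 3, 463 without stimulated 2 and 441 without stimulated 4. Counts of the 10 genes stayed between 5 and 8 (stimulated against naive) and 2 and 4 (Torin against naive). Library totals moved the share of higher calls from 48.7% to 28.5% in stimulated against naive, 50.1% to 67.6% in Torin against stimulated, and 50.9% to 33.4% in Torin against naive cells. Transcript calls of 16, 2 and 7 (stimulated against naive, Torin against stimulated, Torin against naive) were 7, 0 and 3 with a pseudocount of 0.1 CPM, 5, 0 and 2 with a share of at least 5%, and 0, 0 and 1 with diffSpliceDGE. Without 1 library they were 12 to 18, 0 to 2 and 4 to 7. The replicate block left 0 transcript calls between Torin and stimulated cells, and among the 10 genes and named transcripts it moved no call but those given for Mnt and Mxi1. Signs turned for small changes. In Torin against stimulated cells, Max was 0.12 with library totals, 0.0079 with the replicate block, 0.014 with the description letter, 0.0070 without number 2, 0.062 without number 4 and -0.19 to 0.063 without 1 library. Mxd1 was 0.12, 0.21, 0.20 and 0.29 in the first 4 of these settings, 0.000597 with both groups alone and -0.54 to 0.29 without 1 library, and Mxd3 was -0.20 without number 2 and -0.20 to 0.42 without 1 library. In stimulated against naive cells, Max was -0.49 with library totals, -0.0021 with no filter, -0.11 with a mean CPM of at least 5 and -0.092 to 0.15 without 1 library. In Torin against naive cells, Max was 0.029 with both groups alone, 0.030 with the block, 0.040 with the letter, 0.034 without number 2, 0.10 without number 4 and -0.17 to 0.17 without 1 library. There Mnt was -0.34 with library totals, -0.16 with the block, -0.14 with the letter, -0.043 without number 2 and -0.25 to 0.29 without 1 library, Mycn was -0.11 with library totals, and Mga was -0.31 to 0.042 without 1 library. Mlx-203 usage in Torin against stimulated cells was 0.21 with a pseudocount of 2 CPM, 0.016 with the block and -1.04 to 0.59 without 1 library, and there Max-201 was -0.81 to 0.16 and Max-202 -0.14 to 0.79. In Torin against naive cells Mlx-201 was -0.76 to 0.044 and Mlx-202 -0.98 to 0.19 without 1 library. The causes were not tested. What depth limits was not tested, and Mxd3 had no count in stimulated 2.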
